A study of Mus musculus with 12 samples.

Results

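The interaction of genotype with ischemia and reperfusion (I/R) asks whether the response of the mouse kidney to I/R differs between animals labelled as Lrrk2 knockout (KO) and wild type (WT). For each gene it is the log2 difference of KO I/R over KO Sham minus the log2 difference of WT I/R over WT Sham. All 12 of the 12 libraries of the study enter it, in 4 groups of 3. KO I/R and WT I/R kidneys came from Lrrk2 knockout and wild-type mice whose left kidney was made ischemic at 37 °C for 30 min while the other kidney was removed. KO Sham and WT Sham mice had that operation without the ischemia, so all 4 groups lost a kidney. The kind of knockout allele, the strain, sex, age and reperfusion time do not appear in the sources at hand. Nothing in the labels says that the 3 libraries of a group came from separate animals, so the p-values measure the spread between these libraries, which may be technical.

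Leucine-rich repeat kinase 2, the product of Lrrk2, is a kinase and GTPase that phosphorylates Rab proteins of the endosome and lysosome system and is abundant in the kidney. The cells of the proximal tubule, which bear most of the damage of I/R, draw their energy largely from the oxidation of fatty acids in mitochondria and peroxisomes, under the nuclear receptor PPAR alpha. Fibroblasts and pericytes between the tubules make collagen and other matrix during repair. A positive interaction can arise in opposite ways: KO I/R may lie above WT I/R, or KO Sham may lie below WT Sham. Each interaction value was therefore divided into a sham share and an I/R share, and a pair of groups was said to carry the difference where its share was at least 2/3, with all other genes given to both pairs.

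Library totals lay between 4678827 and 5456261 counts over the genes of the table. Lrrk2 did not separate the genotype labels. After I/R it stood at 74.2, 56.5 and 146 CPM (counts scaled to a common library total with TMM factors) in the KO libraries, against 58.3, 69.7 and 80.8 CPM in the WT libraries. After sham surgery it stood at 96.5, 319 and 55.5 CPM in the KO libraries, against 433, 257 and 362 CPM in the WT libraries. Both pairs overlapped, the sham pair carried the Lrrk2 interaction value of 1.57 ± 0.77 (SE), and a count over a gene does not show whether its protein is made, so the names KO and WT below carry the label only. A few KO libraries stood apart. KO Sham 3 had 24.7% of its counts on mitochondrial genes, against 5.64% to 10.7% in the other libraries. KO Sham 1 had 5 counts on Y-linked genes, against 30 to 157 in the others, and the highest levels of the injury genes Havcr1 and Lcn2 among the sham libraries. In KO I/R 2 the deposited counts and FPKM values agreed within 1% for 1.61% of genes, against 100% in each of the other 11 libraries. Some of the results that rest on these libraries are given with and without them, but not all, so a value printed once may also move.

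No gene passed the interaction test. With the quasi-likelihood test of edgeR, 0 of 5048 genes had a Benjamini-Hochberg adjusted p under 0.05 (percent called 0) and the smallest adjusted p was 0.249. At an unadjusted p under 0.05 there were 265 genes, or 5.25% of those tested, of which 115 (2.28%) had a positive and 150 (2.97%) a negative value. DESeq2 on the same counts called 16 genes, 7 positive and 9 negative, and 28 where KO I/R 2 was given the reads recovered from its FPKM values. Of the 16, 12 are among the 24 genes described below, and 4 carry predicted names (Gm43305, Gm15441, Gm42031 and Gm49980). Acaa1b, for example, had an interaction value of 2.17 with edgeR, which did not call it, and 2.19 with DESeq2, which did. The median SE of an interaction value was 0.54 on the log2 scale and the median 95% interval reached 1.17 to either side, so a gene needed a large interaction to pass. An adjusted p above the threshold does not show that the 2 genotypes responded alike.

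The responses to I/R within each genotype were large by comparison. In KO kidneys 1185 genes (23.5%) passed for I/R against sham, 603 higher (11.9%) and 582 lower (11.5%). In WT kidneys 1057 (20.9%) passed, 517 higher (10.2%) and 540 lower (10.7%). The direct genotype comparisons again gave 0 calls: KO I/R against WT I/R had 0 (140 at an unadjusted p under 0.05, 2.77%, and 2 with DESeq2) and KO Sham against WT Sham had 0 (285 at an unadjusted p under 0.05, 5.65%, and 28 with DESeq2).

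The spread was wider among the KO libraries. The median SD of log2 CPM over genes was 0.470 in KO I/R and 0.495 in KO Sham, against 0.205 in WT I/R and 0.306 in WT Sham. Sample quality weights, which limma-voom lowers for libraries that stray from their group, were 0.171 in KO Sham 3 and 0.190 in KO I/R 2. In the other libraries they lay between 0.800 and 2.37. Whether the wider spread rests on KO Sham 3 and KO I/R 2 was not tested. Among the 265 genes at an unadjusted p under 0.05, the I/R pair carried 43, the sham pair 101 and both pairs 121. Over all tested genes the I/R pair carried 1639, the sham pair 2406 and both pairs 1003. The genotype differences ran in opposite directions after I/R and after sham surgery in 243 of the 265, against 2605 of all 5048, but genes chosen for a small interaction p are pushed towards opposite differences by the choice itself, and this is a description.

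**Figure D1:**
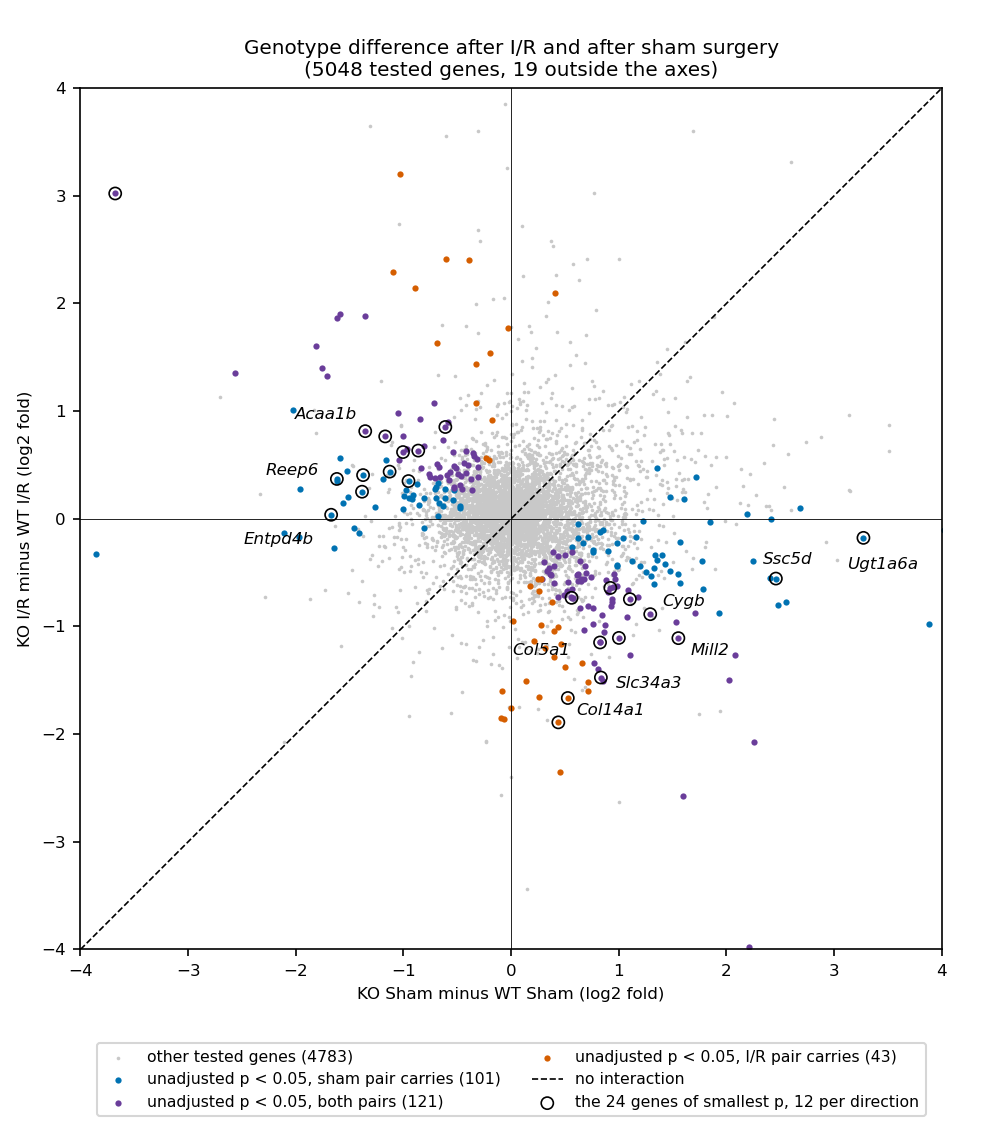
Each point is 1 of the 5048 tested genes, placed by its genotype difference in sham kidneys (KO Sham minus WT Sham, horizontal, log2 fold) and in I/R kidneys (KO I/R minus WT I/R, vertical, log2 fold); distance from the dashed line is the interaction. Of the coloured genes, at an unadjusted p under 0.05, the I/R pair carried 43, the sham pair 101 and both pairs 121. The circled genes are the 24 named genes. They are the 12 of smallest p per direction among genes that reach 5 CPM in some group, predicted gene symbols left aside.

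The 24 genes described next are the 12 of smallest interaction p in each direction among genes that reach 5 CPM in some group, predicted gene symbols left aside. None passed the adjusted test. Their adjusted p lay between 0.26 and 0.83 for the positive genes and between 0.345 and 0.606 for the negative genes. The I/R pair carried 2 of them, the sham pair 8 and both pairs 14. Their genotype differences after I/R and after sham surgery had opposite signs in all 24, a direction that the choice by interaction p favours. The direction of their interaction was the same in every alternative setting that could be fitted, including each library left out in turn. There were 29 settings for each gene except Zbtb9, which had 28 because it was removed by a filter of 5 CPM in 3 libraries. The settings reuse all or most of the libraries on which these genes were chosen. The choice by small p favours a kept direction, so this is a description.

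**Figure D2:**
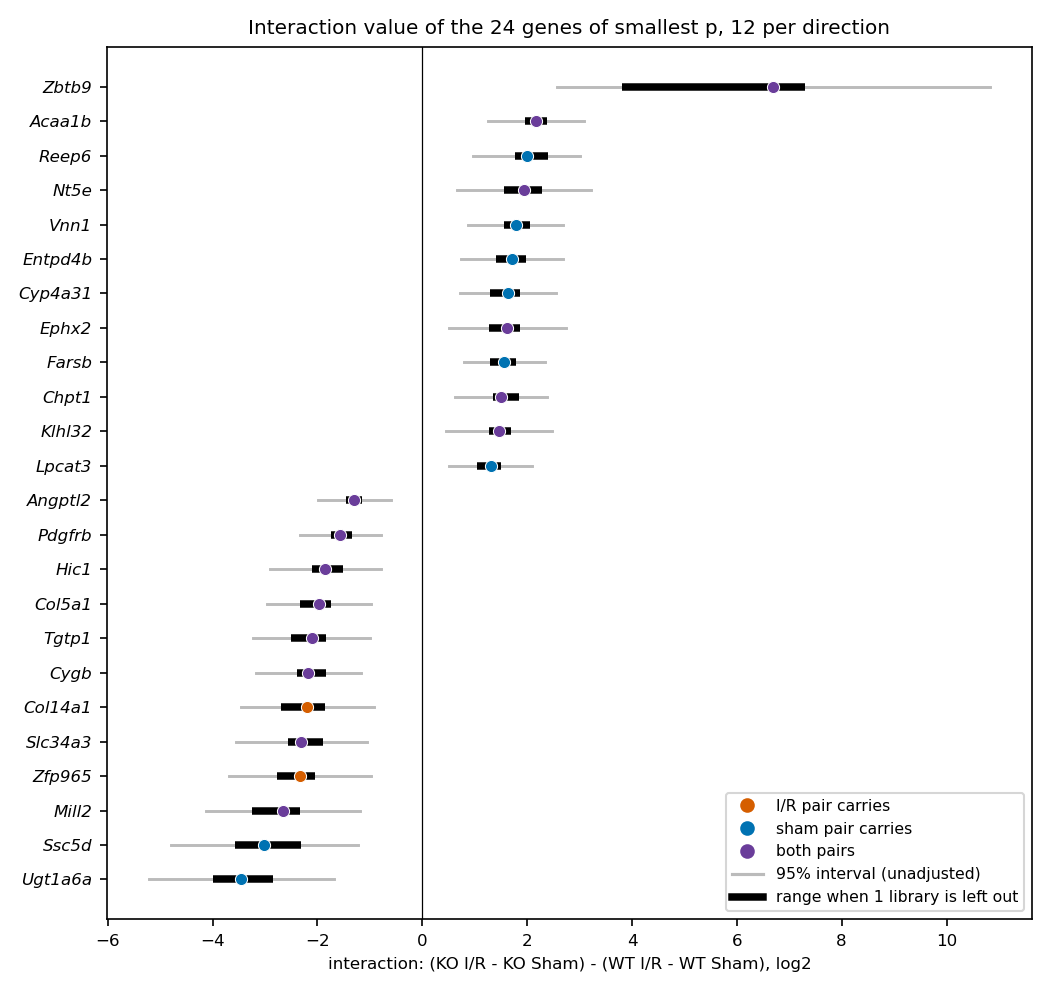
Interaction value (horizontal, log2) of the 24 named genes, 12 positive and 12 negative, with the unadjusted 95% interval of edgeR (grey) and the range when 1 of the 12 libraries was left out (black). The colour of a point says which pair of groups carried the difference: the I/R pair for Col14a1 and Zfp965, the sham pair for 8 genes and both for 14.

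The positive gene of smallest p was Acaa1b. It encodes a peroxisomal 3-ketoacyl-CoA thiolase, which completes a round of peroxisomal fatty acid oxidation, and has a near-identical neighbour, Acaa1a, with which reads may be shared. It lies at chr9:119148023-119157093 (GRCm38, ENSMUSG00000010651). Among the I/R libraries Acaa1b stood at 3802, 5877 and 5230.3 CPM in the KO libraries, against 2439, 2629 and 3411 CPM in the WT libraries. Among the sham libraries it stood at 1199, 1641 and 1622 CPM in the KO libraries, against 2646, 4786 and 3982 CPM in the WT libraries. The KO libraries lay above every WT library after I/R and below every WT library after sham surgery, so both pairs carried the difference. The interaction was 2.17 ± 0.42 (SE; 95% interval 1.25 to 3.09; edgeR adjusted p = 0.260), from a genotype difference of 0.81 after I/R and −1.35 after sham surgery. Acaa1b rose after I/R in KO kidneys (1.74 log2, edgeR adjusted p = 0.00265), and its I/R value in WT kidneys was −0.43 (adjusted p = 0.322). DESeq2 called this interaction (adjusted p = 0.000214).

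Vnn1, which encodes the pantetheinase vanin 1 and is a known PPAR alpha target, was carried by the sham pair. I/R kidneys held 762, 805 and 948 CPM in the KO libraries and 545, 508 and 846 CPM in the WT libraries, which overlapped. Sham kidneys held 487, 390.0 and 247 CPM in the KO libraries, against 788, 1180.3 and 949 CPM in the WT libraries, and here all KO libraries were the lower ones. The interaction was 1.78 ± 0.42 (edgeR adjusted p = 0.442), made of 0.41 between the I/R groups and −1.38 between the sham groups. Vnn1 rose after I/R in KO kidneys (1.16, edgeR adjusted p = 0.0158) and had −0.62 in WT kidneys (adjusted p = 0.152).

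Cyp4a31, a member of the cytochrome P450 family that hydroxylates fatty acids, was carried by the sham pair. In I/R kidneys it stood at 764, 713 and 1328 CPM in the KO libraries and 768, 661 and 928 CPM in the WT libraries. In sham kidneys it stood at 1223, 828 and 811 CPM in the KO libraries, against 2110.0, 2941 and 2421 CPM in the WT libraries. Only the sham pair separated, and the WT Sham libraries were the high ones. Cyp4a31 had −0.03 in KO kidneys (adjusted p = 0.955) and fell after I/R in WT kidneys (−1.67, edgeR adjusted p = 0.00321), with an interaction of 1.64 ± 0.42 (adjusted p = 0.587). Reads of the Cyp4a genes may be split among copies.

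Reep6, which encodes a protein that shapes the endoplasmic reticulum, had the same arrangement. The I/R libraries overlapped at 63.9, 105 and 127 CPM in KO and 54.5, 59.98 and 114 CPM in WT. The 3 KO Sham libraries were nearly level at 113, 112 and 115 CPM, against 268, 444 and 329 CPM in WT Sham. Reep6 had −0.2 in KO kidneys (adjusted p = 0.696) and fell after I/R in WT kidneys (−2.19, adjusted p = 0.00150). The sham pair carried its interaction of 1.99 ± 0.47 (edgeR adjusted p = 0.442). Ephx2, the soluble epoxide hydrolase that opens epoxides of fatty acids, had 1139 ± 226 CPM in KO I/R and 741 ± 139 CPM in WT I/R, with 1159 ± 563 CPM in KO Sham and 2324 ± 287 CPM in WT Sham (SD, n = 3 each). Its I/R libraries overlapped, its sham libraries did not, and both pairs carried the interaction of 1.62 ± 0.51 (adjusted p = 0.830).

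Chpt1 encodes choline phosphotransferase, which makes the membrane lipid phosphatidylcholine. After I/R Chpt1 stood at 1701, 1987 and 2405 CPM in KO, against 1085, 1366 and 1476 CPM in WT. After sham surgery it stood at 1974, 3531 and 1944 CPM in KO, against 4812, 4392 and 4341 CPM in WT. Neither pair overlapped, KO lying above WT after I/R and below it after sham surgery, and both carried the interaction of 1.5 ± 0.40 (edgeR adjusted p = 0.606). Chpt1 had −0.29 in KO kidneys (adjusted p = 0.485) and fell after I/R in WT kidneys (−1.79, adjusted p = 0.00183). Lpcat3, which puts polyunsaturated fatty acids into phospholipids, was carried by the sham pair. Its I/R libraries stood at 563, 635 and 673 CPM in KO, against 457, 493 and 518 CPM in WT, and its sham libraries at 292, 319 and 150.5 CPM in KO, against 508, 499.8 and 467 CPM in WT. Neither pair overlapped, the step between the sham groups was the larger, and the interaction was 1.3 ± 0.36 (adjusted p = 0.624). Lpcat3 rose after I/R in KO kidneys (1.3, adjusted p = 0.00515) and had −0.01 in WT kidneys (adjusted p = 0.988).

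Farsb, a subunit of phenylalanyl-tRNA synthetase, was carried by the sham pair: 97.6, 134 and 82.6 CPM in KO Sham, against 231, 251 and 206 CPM in WT Sham. It rose after I/R in KO kidneys (1.74, edgeR adjusted p = 0.00119) and had 0.18 in WT kidneys (adjusted p = 0.644), and its interaction was 1.57 ± 0.36 (adjusted p = 0.442). Entpd4b, a nucleoside diphosphatase gene with a near-identical copy that makes its level uncertain, was carried wholly by the sham pair: its genotype difference was 0.04 between the I/R groups and −1.67 between the sham groups, for an interaction of 1.71 ± 0.45 (adjusted p = 0.606). Nt5e encodes the ecto-5'-nucleotidase CD73, which makes adenosine outside the cell. Its I/R libraries overlapped, at 232, 79.2 and 212 CPM in KO and 115, 79.2 and 114 CPM in WT. Its sham libraries did not, at 125, 182 and 91.7 CPM in KO and 435, 208 and 253 CPM in WT, and both pairs carried the interaction of 1.93 ± 0.59 (adjusted p = 0.830). The overlap after I/R came from KO I/R 2 alone, whose counts and FPKM values disagree. On recovered reads for KO I/R 2, DESeq2 called the Nt5e interaction at 2.34 (DESeq2 adjusted p = 0.000394), with 1.15 between the I/R groups.

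Klhl32, a gene of the kelch-like family, was low in all groups, and both pairs separated without overlap for an interaction of 1.46 ± 0.46 (edgeR adjusted p = 0.830). Zbtb9, a zinc finger gene, had the largest value of the 24, 6.7 ± 1.90 (adjusted p = 0.624), which rested on single libraries. It stood at 22.03, 2.17 and 2.400 CPM in KO I/R and 1.28, 0.731 and 1.22 CPM in WT I/R, with 0.484, 0.774 and 0 CPM in KO Sham and 16.6, 0.601 and 0.984 CPM in WT Sham. KO I/R 1 and WT Sham 1 were far above the other 10 libraries, and without WT Sham 1 the value was 3.81.

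**Figure D3:**
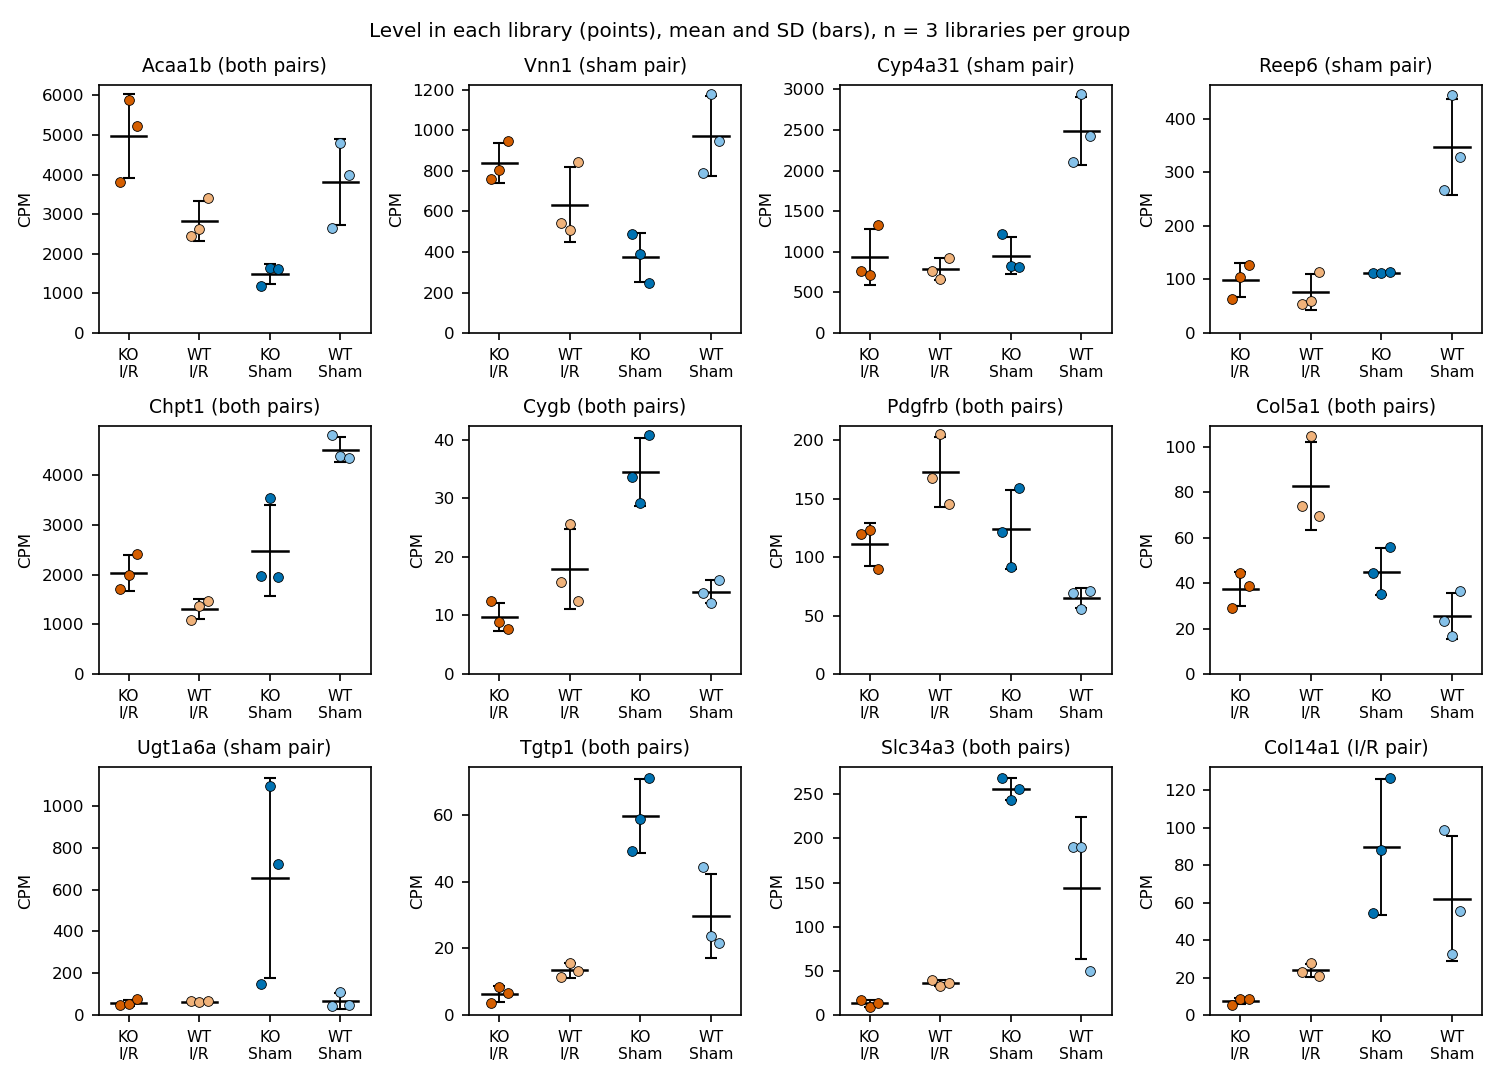
Level of 12 of the named genes (vertical, CPM, linear scale from 0) in each library of the 4 groups, with the mean (line) and SD (bars) of 3 libraries; the heading of each panel names the pair of groups that carried the difference. Col14a1 separates only between KO I/R and WT I/R, Vnn1, Cyp4a31 and Reep6 separate only between KO Sham and WT Sham, and Acaa1b, Chpt1, Cygb and Pdgfrb separate in both pairs.

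The list of fatty acid oxidation and PPAR alpha genes had Acaa1b and Vnn1 among its members. Of its 34 genes, 12 were in the table and all 12 were tested. Members of this and the later lists other than the 24 genes above and the 1 of smallest p in each list were picked for description after their values were seen. None passed the adjusted test, 7 had an unadjusted p under 0.05, against 5.25% of all tested genes, and 11 of 12 had a positive interaction. The median interaction of the list was 0.98, against 0.01 over all genes tested, and it stayed between 0.71 and 1.16 in the 29 alternative settings. The median genotype difference was 0.47 after I/R and −0.68 after sham surgery. The I/R pair carried 1 member, the sham pair 6 and both pairs 5. In I/R kidneys 5 of the 12 had all KO libraries above all WT libraries, against 4.54% of all tested genes. In sham kidneys 6 of the 12 had all KO libraries below all WT libraries, against 5.39% of all tested genes. After I/R, 4 members rose and 1 fell in KO kidneys, where 11.9% of all tested genes rose and 11.5% fell. In WT kidneys 0 members rose and 2 fell, where 10.2% of all tested genes rose and 10.7% fell.

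Acadl, long-chain acyl-CoA dehydrogenase, had 1310.5, 1241 and 1430.0 CPM in KO I/R, against 1083, 1197 and 1203 CPM in WT I/R, and 1045, 1085 and 919.8 CPM in KO Sham, against 1534, 1749.8 and 1377 CPM in WT Sham. Neither pair overlapped, and the sham pair carried the interaction of 0.8 ± 0.28 (edgeR adjusted p = 0.873). Acadm, medium-chain acyl-CoA dehydrogenase, fell after I/R in both genotypes, with log2 values of −1.58 in KO (adjusted p = 0.00776) and −2.69 in WT (adjusted p = 0.000625). Its I/R libraries overlapped, and its KO Sham level of 2309 ± 1066 CPM lay below the 4382 ± 247 CPM of WT Sham (SD, n = 3 each) without overlap. Its interaction was 1.11 ± 0.48, carried by the sham pair.

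Eci2, an enoyl-CoA isomerase of peroxisomes and mitochondria, had an interaction of 1.15 ± 0.38, with 0.39 between the I/R groups and −0.75 between the sham groups. Pex11a, which drives the division of peroxisomes, had 0.84 ± 0.31, with 0.43 between the I/R groups and −0.42 between the sham groups. Eci2 and Pex11a rose after I/R in KO kidneys (edgeR adjusted p = 0.0153 and 0.0413) and had −0.09 and −0.16 in WT kidneys.

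Cyp4a14, a fatty acid hydroxylase, and Pdk4, the kinase that turns off pyruvate dehydrogenase, had large values that a single library could move. Cyp4a14 stood at 1003, 1455 and 1167 CPM in KO I/R, against 580.3, 508 and 996 CPM in WT I/R, and at 2779, 216 and 61.7 CPM in KO Sham, against 3324, 4642 and 2778 CPM in WT Sham. KO Sham 1 lay at the lower end of the WT Sham range and the other KO Sham libraries far below it. The interaction was 2.61 ± 1.33 (edgeR adjusted p = 0.975) with all libraries and 5.48 without KO Sham 1, where it passed (adjusted p = 0.0312). Pdk4 stood at 429, 99.3 and 84.8 CPM in KO Sham and 2173, 132 and 191 CPM in WT Sham, where WT Sham 1 was far above the others, and the sham pair carried its interaction of 3.03 ± 1.34. Ppara, the gene of the receptor itself, had −0.06 ± 1.01, the only member of the list with a value below 0.

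**Figure D4:**
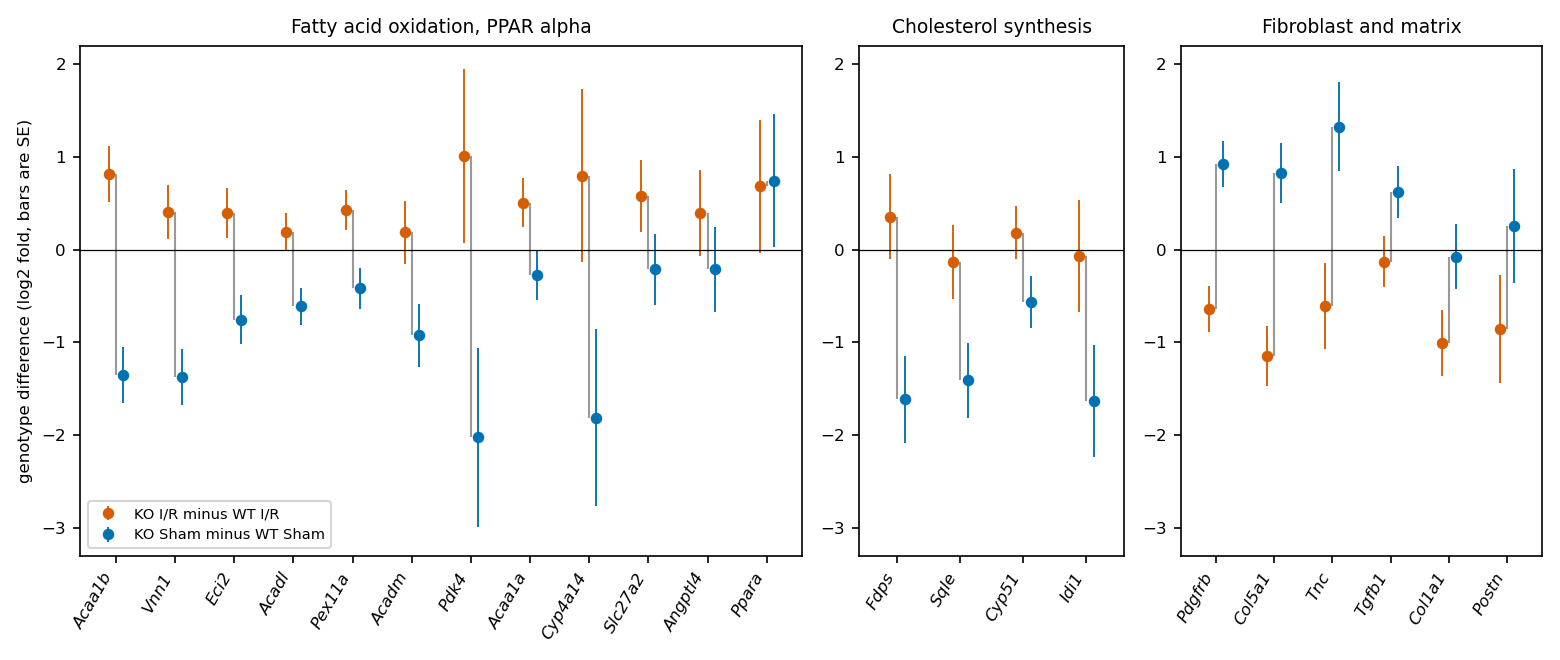
Genotype difference after I/R (KO I/R minus WT I/R) and after sham surgery (KO Sham minus WT Sham) for all 12 tested genes of the fatty acid list, 4 of the 5 of the cholesterol list and all 6 of the matrix list (vertical, log2 fold, bars are SE), ordered by interaction p. The I/R differences lie below 0 for all 6 matrix genes, the sham differences lie below 0 for 11 of the 12 fatty acid genes and all 4 cholesterol genes drawn, and no single difference passed the adjusted test.

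Cholesterol synthesis was carried by the sham pair throughout. All 5 tested members of the 23 listed had a positive interaction, 3 of them at an unadjusted p under 0.05, against 2.28% of all tested genes in that direction, and none past the adjusted test. The list's median interaction was 1.57, with a median genotype difference of −0.07 after I/R and −1.62 after sham surgery. Fdps encodes farnesyl diphosphate synthase, a step of the mevalonate pathway. Among the I/R libraries Fdps stood at 91.8, 244 and 84.8 CPM in KO and 110.4, 131 and 87.98 CPM in WT. Among the sham libraries it stood at 41.3, 37.5 and 34.1 CPM in KO, against 47.8, 160.2 and 138 CPM in WT. The I/R groups overlapped and the sham groups did not. Fdps rose after I/R in KO kidneys (1.89, edgeR adjusted p = 0.0145), had −0.07 in WT kidneys (adjusted p = 0.918), and had an interaction of 1.97 ± 0.65 (adjusted p = 0.836).

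Sqle, squalene epoxidase, had −0.12 in KO kidneys (adjusted p = 0.850) and fell after I/R in WT kidneys (−1.4, edgeR adjusted p = 0.0290). Its sham levels were 159.7, 174 and 52.8 CPM in KO, against 209.6, 352 and 466 CPM in WT, without overlap. Idi1, isopentenyl diphosphate isomerase, had −1.54 in KO kidneys (adjusted p = 0.0886) and fell after I/R in WT kidneys (−3.11, adjusted p = 0.00588), again with sham libraries that did not overlap. Cyp51, lanosterol demethylase, fell in both genotypes, with log2 values of −2.97 in KO and −3.72 in WT. The list's median stayed positive in all 29 alternatives, between 0.73 and 1.97, and was 0.84 without KO Sham 1 and KO Sham 3.

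Proximal tubule markers were set beside these lists, since the enzymes are abundant in that segment. Of 16 tested, 10 had a positive and 6 a negative interaction, the median was 0.84, and the medians of the genotype difference were 0.44 after I/R and −0.25 after sham surgery. Leaving out KO Sham 1 gave a median interaction of 0.53, leaving out KO Sham 3 as well gave 0.22, and doing so on recovered reads for KO I/R 2 gave 0.11. Their summed level ranged over 42705 to 92462 CPM in KO I/R, 97182 to 108663 CPM in WT I/R, 42818 to 129856 CPM in KO Sham and 55279.9 to 157429 CPM in WT Sham. Gpx3, a secreted glutathione peroxidase of the proximal tubule, had a large part in these sums in most libraries. It stood at 74996, 19336 and 22230.1 CPM in KO I/R, against 86284, 92770.1 and 87568 CPM in WT I/R, and at 81586, 70914 and 3775 CPM in KO Sham and 90151, 90990.2 and 10813 CPM in WT Sham, where both library 3 samples were low. The summed level of KO I/R lay below that of WT I/R without overlap, as did Gpx3 alone, and that of the sham groups overlapped. The mean log2 CPM of the 16 markers, in which each gene weighs alike, overlapped between the I/R groups. It was 8.34, 8.23 and 8.65 in KO I/R and 7.98, 8.39 and 8.44 in WT I/R. The lower sum therefore does not show lower levels of the other markers in KO I/R. The I/R pair carried 6 of the 16 values, the sham pair 3 and both pairs 7. Of the 16, 15 were above 0 in every library, Slc7a12 was at 0 in some I/R libraries, and their part in the fatty acid and cholesterol values was not tested. In whole kidney, fewer cells of a type and less RNA per cell cannot be told apart.

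Slc22a12, the urate transporter of the proximal tubule, had 25.5, 48.1 and 40.1 CPM in KO I/R, against 12.8, 19.9 and 21.1 CPM in WT I/R, and 38.2, 97.1 and 24.4 CPM in KO Sham, against 102, 119.8 and 42.1 CPM in WT Sham. The I/R libraries separated and the sham libraries did not, and both pairs carried the interaction of 1.8 ± 0.72 (edgeR adjusted p = 0.941). Napsa, an aspartic protease, was carried by the I/R pair: 1818, 7863 and 2629 CPM in KO I/R, against 820.3, 1781 and 1639 CPM in WT I/R, for 1.74 ± 0.69 (adjusted p = 0.941). It had −0.94 in KO kidneys (adjusted p = 0.179) and fell after I/R in WT kidneys (−2.68, adjusted p = 0.00416).

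Slc34a3, a sodium phosphate cotransporter of the proximal tubule, had the smallest p of that list and ran opposite to its median. It lies at chr2:25228898-25234364 (GRCm38, ENSMUSG00000006469). In I/R kidneys it stood at 16.5, 9.38 and 13.3 CPM in KO, against 39.5, 33.1 and 36.6 CPM in WT. In sham kidneys it stood at 268, 244 and 256 CPM in KO, against 191, 189.8 and 50.4 CPM in WT, where WT Sham 3 was the low library. KO lay below WT after I/R and above it after sham surgery, without overlap in either pair, and both carried the interaction of −2.31 ± 0.57 (edgeR adjusted p = 0.527). Slc34a3 fell after I/R in both genotypes, with log2 values of −4.29 in KO (adjusted p = 0.000174) and −1.98 in WT (adjusted p = 0.00608), and without WT Sham 3 its interaction was −1.90.

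Among the 12 negative genes, Pdgfrb encodes the receptor for platelet-derived growth factor B, the defining marker of pericytes and fibroblasts of the kidney. After I/R Pdgfrb stood at 120.1, 123 and 89.6 CPM in KO, against 168, 205 and 146 CPM in WT. After sham surgery it stood at 121, 91.7 and 159 CPM in KO, against 69.7, 55.5 and 70.8 CPM in WT. KO lay below WT after I/R and above it after sham surgery, with no overlap in either pair, and both pairs carried the interaction of −1.56 ± 0.35 (95% interval −2.34 to −0.79; edgeR adjusted p = 0.442). Pdgfrb had −0.16 in KO kidneys (adjusted p = 0.673) and rose after I/R in WT kidneys (1.4, adjusted p = 0.00318).

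Col5a1, which encodes a chain of the fibril collagen type V, had −0.27 in KO kidneys (adjusted p = 0.566) and rose after I/R in WT kidneys (1.7, edgeR adjusted p = 0.00416). Its I/R libraries separated, at 29.2, 44.3 and 38.6 CPM in KO, against 74.00, 105 and 69.5 CPM in WT. Its sham libraries overlapped, at 44.5, 35.02 and 55.8 CPM in KO and 23.2, 16.6 and 36.4 CPM in WT. Both pairs carried the interaction of −1.97 ± 0.45 (adjusted p = 0.442), the I/R pair with −1.15 and the sham pair with 0.83. Col5a1 lies at chr2:27886425-28039514 (GRCm38, ENSMUSG00000026837).

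Cygb encodes cytoglobin, a globin of fibroblasts and pericytes, at chr11:116645595-116654313 (GRCm38, ENSMUSG00000020810). Among the I/R libraries it stood at 12.4, 8.901 and 7.76 CPM in KO, against 15.7, 25.6 and 12.5 CPM in WT. Among the sham libraries it stood at 33.7, 29.2 and 40.8 CPM in KO, against 13.9, 12.2 and 16.1 CPM in WT. Neither pair overlapped, and the wider gap was between the sham groups, although each pair kept under 2/3 of the interaction of −2.18 ± 0.46 (edgeR adjusted p = 0.345). Cygb fell after I/R in KO kidneys (−1.83, adjusted p = 0.00302) and had 0.35 in WT kidneys (adjusted p = 0.464). Hic1, a transcriptional repressor that marks resting mesenchymal cells, had −0.5 in KO kidneys (adjusted p = 0.307) and rose after I/R in WT kidneys (1.35, adjusted p = 0.0173). Both of its pairs separated without overlap, with −0.75 after I/R and 1.1 after sham surgery.

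Col14a1, which encodes a collagen that sits on the surface of fibrils, was carried by the I/R pair. In I/R kidneys it stood at 5.55, 8.42 and 8.68 CPM in KO, against 23.1, 27.8 and 20.9 CPM in WT, without overlap. In sham kidneys the libraries overlapped, at 54.4, 88.03 and 127 CPM in KO and 98.6, 32.4 and 55.5 CPM in WT. Its interaction was −2.19 ± 0.58 (edgeR adjusted p = 0.606), and it fell after I/R in both genotypes, with log2 values of −3.57 in KO (adjusted p = 0.000484) and −1.38 in WT (adjusted p = 0.0324).

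All 6 tested members of the fibroblast and matrix list of 30 had a negative interaction, 3 of them at an unadjusted p under 0.05, against 2.97% of all tested genes in that direction, and none past the adjusted test. The median was −1.34, from −0.75 between the I/R groups and 0.72 between the sham groups, and it stayed between −1.58 and −1.09 in the 29 alternatives, with all 6 members negative in each. The I/R pair carried 2 of the 6, the sham pair 2 and both pairs 2. In I/R kidneys 4 of the 6 had all KO libraries below all WT libraries, against 4.89% of all tested genes. In sham kidneys 2 of the 6 had all KO libraries above all WT libraries, against 4.85% of all tested genes. The summed level of the list was 540.1 to 705 CPM in KO I/R, against 855 to 1123 CPM in WT I/R. It was 290.0 to 428 CPM in KO Sham, against 207 to 287 CPM in WT Sham. The summed level of KO was lower than that of WT in every I/R library and higher in every sham library.

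After I/R, 3 of the 6 rose in KO kidneys, where 11.9% of all tested genes rose, and all 6 rose in WT kidneys, where 10.2% did. None of the 6 fell in either genotype. Col1a1, the main chain of type I collagen, rose in both genotypes (1.07 in KO, edgeR adjusted p = 0.0477, and 2.0 in WT, adjusted p = 0.00319), and the I/R pair carried its interaction of −0.93 ± 0.50. Tnc, tenascin C, a matrix protein of wounds, rose in both genotypes (1.87 in KO, adjusted p = 0.0158, and 3.81 in WT, adjusted p = 0.000672), and its interaction of −1.93 ± 0.67 was carried by the sham pair. Tnc stood at 64.9, 30.4 and 14.5 CPM in KO Sham, against 9.27, 11.2 and 23.4 CPM in WT Sham, where KO Sham 1 was the highest library. Tgfb1, the transforming growth factor that drives matrix production, was carried by the sham pair (−0.13 between the I/R groups and 0.62 between the sham groups), and Postn, periostin, by the I/R pair (−0.86 between the I/R groups and 0.25 between the sham groups).

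Endothelial markers were few. Of 3 tested, Tie1, Robo4 and Esam, all had a negative interaction, with a median of −0.49. Tie1, an endothelial receptor kinase, had 132, 149 and 95.6 CPM in KO I/R, against 172, 195 and 188 CPM in WT I/R, and the I/R pair carried its interaction of −0.8 ± 0.34 (edgeR adjusted p = 0.941). The part of endothelial cells in the matrix values was not tested.

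The remaining negative genes belong to several roles. Ugt1a6a encodes a UDP-glucuronosyltransferase that conjugates drugs and phenols, and shares exons with the other genes of its cluster, so that reads may be shared. It lies at chr1:88134809-88218997 (GRCm38, ENSMUSG00000054545). After I/R it stood at 45.5, 50.8 and 74.8 CPM in KO and 65.6, 62.5 and 65.3 CPM in WT. In sham kidneys it stood at 146, 1096 and 723 CPM in KO, against 43.8, 111 and 48.8 CPM in WT. The I/R libraries overlapped, all KO Sham libraries lay above all WT Sham libraries, and the sham pair carried the interaction of −3.45 ± 0.81 (edgeR adjusted p = 0.442). Ugt1a6a fell after I/R in KO kidneys (−3.52, adjusted p = 0.00258) and had −0.07 in WT kidneys (adjusted p = 0.935). Without KO Sham 1, the lowest of its group, the interaction was −3.92 and passed (adjusted p = 0.0312).

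Tgtp1, an interferon-induced GTPase with a near-identical copy, had both pairs apart. Among the I/R libraries it stood at 3.702, 8.42 and 6.65 CPM in KO, against 11.3, 15.7 and 13.2 CPM in WT. After sham surgery it stood at 49.05, 58.8 and 71.1 CPM in KO, against 44.2, 23.6 and 21.4 CPM in WT. KO lay below WT after I/R and above it after sham surgery, with an interaction of −2.11 ± 0.51 (edgeR adjusted p = 0.515). Tgtp1 fell after I/R in both genotypes, with log2 values of −3.26 in KO (adjusted p = 0.000376) and −1.15 in WT (adjusted p = 0.0411). Mill2, a molecule of the MHC class I family, fell after I/R in KO kidneys (−3.64, adjusted p = 0.000871) and had −0.98 in WT kidneys (adjusted p = 0.151), with both pairs apart.

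Angptl2, a secreted angiopoietin-like protein, fell after I/R in both genotypes, with log2 values of −2.12 in KO (edgeR adjusted p = 0.000221) and −0.83 in WT (adjusted p = 0.0236). It stood at 31.3, 23.6 and 22.5 CPM in KO I/R, against 44.3, 41.5 and 43.03 CPM in WT I/R, and at 90.8, 111 and 135 CPM in KO Sham, against 68.5, 70.3 and 89.9 CPM in WT Sham. Both pairs were apart, for an interaction of −1.3 ± 0.32 (adjusted p = 0.527). Zfp965, a zinc finger gene, was carried by the I/R pair, at 0.925, 0.481 and 1.48 CPM in KO I/R, against 3.098, 3.66 and 4.36 CPM in WT I/R, while its sham libraries overlapped. On recovered reads for KO I/R 2, the number of named genes carried by the I/R pair fell to 1. Ssc5d, a secreted scavenger receptor, was carried by the sham pair, at 7.26, 4.84 and 17.7 CPM in KO Sham, against 2.95, 1.202 and 1.18 CPM in WT Sham, for −3.01 ± 0.82 (adjusted p = 0.606).

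The median interaction of the tubular injury genes, and the values of Havcr1 and Lcn2, rested on a single sham library. Of 28 listed, 8 were tested. After I/R, 7 rose in each genotype, where 11.9% of all tested genes rose in KO and 10.2% in WT. Of the 8, 6 had a negative and 2 a positive interaction, and 0 had an unadjusted p under 0.05, against 5.25% of all tested genes. The median interaction was −0.60, from 0.14 between the I/R groups and 0.76 between the sham groups, and the sham pair carried 7 of the 8. Havcr1 encodes kidney injury molecule 1, which injured tubules display. It stood at 6293, 8181 and 6843 CPM in KO I/R, against 3091, 5338 and 4599 CPM in WT I/R, where all KO libraries were above all WT libraries. It stood at 230.2, 3.29 and 1.07 CPM in KO Sham, against 4.64, 8.61 and 21.8 CPM in WT Sham, where KO Sham 1 was the high library and the other KO Sham libraries were below all WT Sham libraries.

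Havcr1 rose after I/R in both genotypes, with log2 values of 6.5 in KO (edgeR adjusted p = 0.0108) and 8.53 in WT (adjusted p = 0.00482). Its interaction was −2.03 ± 1.75 (adjusted p = 1) with all libraries and 3.07 without KO Sham 1. Lcn2, the iron-carrier binding protein of injured tubules, rose in both genotypes (7.91 in KO, adjusted p = 0.000863, and 8.71 in WT, adjusted p = 0.000593). Its interaction was −0.8 ± 1.16 with all libraries and 1.29 without KO Sham 1. The median over the 8 injury genes was 0.47 without KO Sham 1, the opposite direction. S100a6, a calcium-binding protein, had the smallest p of the list and −1.04 ± 0.67 (adjusted p = 0.999). Its value stayed between −1.78 and −0.69 with each library left out in turn.

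The list of cytokines, chemokines and adhesion genes also moved with the KO Sham libraries. Of 10 tested, 9 had a negative interaction, and the median was −1.02, with −0.25 between the I/R groups and 0.89 between the sham groups. The I/R pair carried 3, the sham pair 5 and both pairs 2. Without KO Sham 1 the median was −0.22. Without KO Sham 1 and KO Sham 3 it was 0.29, with 6 of 10 positive, and without them on recovered reads for KO I/R 2 it was 0.32, both in the other direction. Csf1, the macrophage growth factor, had the smallest p of the list. It stood at 85.7, 125 and 107 CPM in KO I/R, against 155, 153 and 159 CPM in WT I/R, and at 51.1, 28.2 and 50.7 CPM in KO Sham, against 19.4, 30.8 and 31.3 CPM in WT Sham. All KO I/R libraries were below all WT I/R libraries, the sham libraries overlapped, and both pairs carried the interaction of −1.23 ± 0.39 (edgeR adjusted p = 0.830). Csf1 rose after I/R in both genotypes, with log2 values of 1.29 in KO (adjusted p = 0.00757) and 2.52 in WT (adjusted p = 0.000294).

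Markers of leukocytes gave 1 gene at an unadjusted p under 0.05, Cd79a, where 5.25% of all tested genes had such a p. This count does not set the leukocyte markers apart from other genes. Of 8 monocyte and macrophage genes 5 were negative with a median of −0.12, and of 4 neutrophil genes all were negative with a median of −0.98. Of 5 lymphocyte genes 4 were negative with a median of −1.42. Without KO Sham 1 and KO Sham 3 these medians were 0.24 for monocytes and macrophages, 0.23 for neutrophils, both in the other direction, and −0.03 for lymphocytes. The monocyte and macrophage median changed sign in 6 of the 29 alternatives, the neutrophil median was −0.30 without KO Sham 3 alone, and the lymphocyte median was 0.47 with the filter of 5 CPM in 3 libraries. Cd79a, a part of the B cell receptor, had −2.16 ± 0.88 (edgeR adjusted p = 0.941), carried by the sham pair. The summed lymphocyte level was 15.2 to 63.3 CPM in KO I/R, against 4.01 to 6.58 CPM in WT I/R, and 285 to 1012 CPM in KO Sham, against 7.87 to 166 CPM in WT Sham, so KO lay above WT in both pairs. Igkc, an immunoglobulin light chain gene, made up most of that sum in every KO library and differed by 4.05 between the I/R groups and 3.59 between the sham groups, with an interaction of 0.46 ± 1.79. All 4 antigen presentation genes had a negative value, with a median of −0.50, which was −0.82 on recovered reads for KO I/R 2, with 3 of 4 negative, and B2m, the light chain of MHC class I, had −0.87 ± 0.37 (edgeR adjusted p = 0.941), carried by both pairs.

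**Figure D5:**
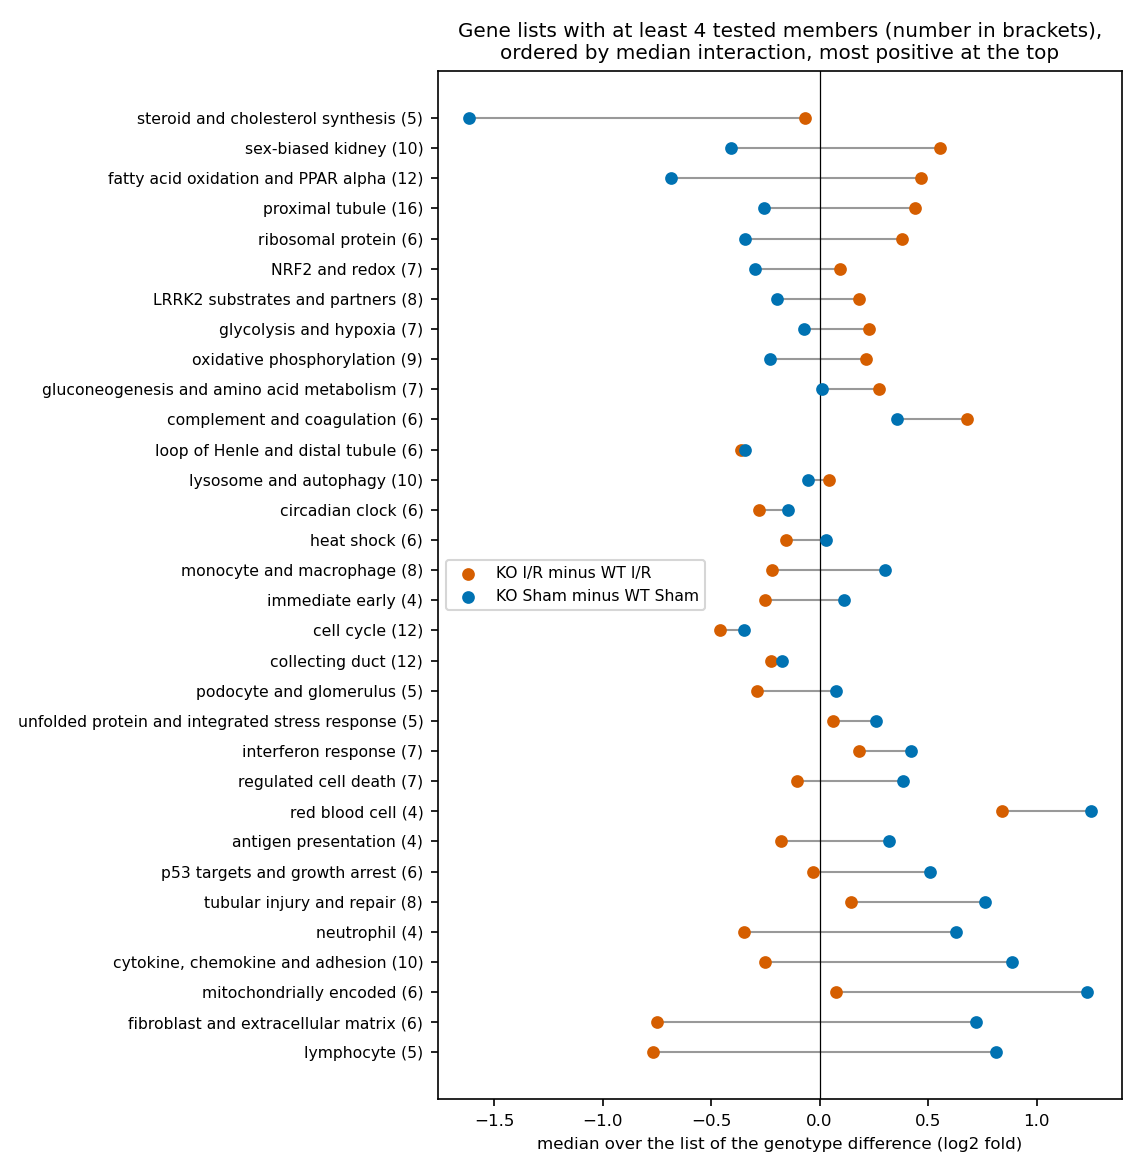
Median genotype difference after I/R (KO I/R minus WT I/R) and after sham surgery (KO Sham minus WT Sham), in log2 fold, over the tested members of the 32 lists with at least 4 of them; the line between the points is the difference of the medians. The cholesterol list has its I/R median near 0 (−0.07) and its sham median at −1.62, and the fibroblast and matrix list has medians of −0.75 and 0.72 on either side of 0.

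Mitochondrially encoded genes were carried by the sham pair and rested on a single library of it. All 6 tested had a negative interaction, with a median of −1.19 and medians of 0.08 between the I/R groups and 1.23 between the sham groups. Without KO Sham 3, the library with 24.7% mitochondrial counts, the median was 0.38, in the other direction. mt-Rnr2, the large ribosomal RNA of the mitochondrion, stood at 2723, 2162 and 14684 CPM in KO Sham, against 2425, 2457 and 1797 CPM in WT Sham, and only KO Sham 3 was high. Reads of these genes may be shared with their nuclear copies. Nuclear genes of oxidative phosphorylation had a positive value in 7 of 9, with a median of 0.37. That median was −0.03 without KO I/R 2, and 0.03 on recovered reads for that library, with 5 of 9 positive.

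Known substrates and partners of LRRK2 gave no gene at an unadjusted p under 0.05, against 5.25% of all tested genes. Of 8 tested, Lrrk2 included, 7 had a positive interaction, with a median of 0.42, which was 0.17 without KO Sham 3. Rab10, a Rab protein that LRRK2 phosphorylates, had 0.35 ± 0.36, and Rab29, which recruits LRRK2 to membranes, had −0.51 ± 0.42. Rdx, radixin, a membrane linker, had 1.56 ± 0.81 and was carried by the sham pair. Of the tubule segments beyond the proximal tubule, the loop of Henle and collecting duct lists had medians of 0.05 and −0.15, each of which changed sign with some library left out. In them Cldn14, a claudin of the thick ascending limb, rose after I/R in both genotypes, with log2 values of 3.5 in KO (edgeR adjusted p = 0.00197) and 6.13 in WT (adjusted p = 0.000294), with an interaction of −2.63 ± 0.90 carried by the sham pair. Insrr, a receptor kinase of intercalated cells, fell in both genotypes, with log2 values of −3.38 in KO (adjusted p = 0.000928) and −1.75 in WT (adjusted p = 0.0171), with −1.63 ± 0.62 carried by the I/R pair. Without KO Sham 3 the Insrr interaction was −0.80.

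In the lists of stress, growth and turnover the leading genes were carried by different pairs. Trib3, a pseudokinase of the integrated stress response, had 42.2, 41.9 and 28.4 CPM in KO I/R and 81.5, 33.5 and 42.5 CPM in WT I/R, with 17.4, 6.19 and 6.44 CPM in KO Sham, against 2.32, 5.41 and 3.15 CPM in WT Sham. Its I/R libraries overlapped, its sham libraries did not, and the sham pair carried the interaction of −1.96 ± 0.69 (edgeR adjusted p = 0.873). Trib3 rose after I/R in both genotypes (1.89 in KO, adjusted p = 0.0159, and 3.84 in WT, adjusted p = 0.0007).

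Hspa1a, an inducible heat shock protein with a near-identical copy, stood at 266, 158 and 123 CPM in KO I/R and 1143, 236 and 282 CPM in WT I/R, with 154, 122 and 90.9 CPM in KO Sham and 46.1, 79.7 and 97.4 CPM in WT Sham. Both pairs overlapped, and the I/R pair carried the interaction of −2.32 ± 0.78 (edgeR adjusted p = 0.836). WT I/R 1 was far above the others, and the interaction was −1.22 without it and −1.01 with DESeq2 on recovered reads for KO I/R 2. Ccnd1, cyclin D1, fell after I/R in KO kidneys (−1.17, adjusted p = 0.0243) and had 0.04 in WT kidneys (adjusted p = 0.943), with both pairs carrying −1.2 ± 0.46.

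Uroc1, urocanase of histidine breakdown, fell after I/R in both genotypes, with log2 values of −4.95 in KO (edgeR adjusted p = 1.61e-06) and −4.03 in WT (adjusted p = 9.73e-06), and its interaction of −0.93 ± 0.33 was carried by the I/R pair. The medians of the lysosome list, the cell cycle list, the heat shock list and the interferon list were 0.01, −0.14, −0.09 and −0.24, each of which changed sign in at least 1 of the 29 alternatives. The median of the p53 and growth arrest list was −0.53, and −0.14 without KO Sham 1. The regulated cell death list had −0.35 (between −0.58 and −0.03 in the alternatives) and the NRF2 and redox list 0.59 (between 0.19 and 0.72).

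Genes that differ between male and female mouse kidneys were followed because KO Sham 1 had few Y-linked counts. Of 10 tested, 8 had a positive and 2 a negative interaction, with a median of 0.98, a median genotype difference of 0.55 after I/R and −0.41 after sham surgery. The values ran from −2.88 to 2.84, the same extremes as in the proximal tubule list. These lists share members, among them Slc7a12, so their medians are not separate results. The list was not split by the sex in which a gene is higher, so its median and sign count show no direction of sex. Leaving out KO Sham 1 gave a median of 0.68 with 9 of 10 positive, and leaving out KO Sham 3 as well gave 0.39. Cyp2j13, a cytochrome P450 of the male kidney, was at 1.13 CPM in KO Sham 1, with 1179 and 559 CPM in the other KO Sham libraries, against 1326, 767 and 633 CPM in WT Sham. Prlr, the prolactin receptor, stood at 511, 91.1 and 23.1 CPM in KO Sham, against 8.43, 74.5 and 34.2 CPM in WT Sham. Acsm3 and Slc22a30 were likewise lowest, and Slc7a12 highest, in KO Sham 1. Without KO Sham 1 the median interaction was 0.96 for the fatty acid list, 1.46 for the cholesterol list and −1.18 for the matrix list.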

How the data were processed

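RNA of mouse kidney was sequenced as 12 paired-end libraries, 3 in each of 4 groups, prepared with the TruSeq RNA kit, per the labels' protocols. HISAT2 and StringTie are named per the submitters' processing notes, and neither the genome build, the counting rules nor any use of strand appears in the sources at hand. The authors deposited read counts per gene and, beside them, FPKM values (fragments scaled by gene length and library total), per the file headers. Of 16383 genes in the table, 99.6% of IDs and 99.0% of loci matched the GENCODE annotation of GRCm38. The matched genes were 29.4% of that annotation. Genes absent from the table, among them many members of the lists, could not be tested.

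Counts were fitted with edgeR 4.0.16 (R 4.3.3): TMM factors, the filterByExpr filter (minimum count 10, minimum total 15), which left 5048 genes, a mean for each of the 4 groups, and quasi-likelihood tests with Benjamini-Hochberg adjustment over all tested genes, called at an adjusted p under 0.05. CPM are counts scaled to a common library total with TMM factors. DESeq2 1.42.0 and limma 3.58.1 served as alternatives. The script was tested on simulated data.

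For KO I/R 2, FPKM values gave whole reads for 100% of 2720 low values (tolerance 0.05 reads), and these reads served as an alternative to its counts.

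Named genes were those passing the interaction test, filled up to 12 per direction by smallest p among genes that reach a mean of 5 CPM in some group, predicted gene symbols left aside, then the 1 gene of smallest p in each list, and Lrrk2, Havcr1 and Lcn2. The lists and this choice of comparison were made with earlier results of these data known. A few genes that this rule or the lists name are not reported here.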

Additional observations from a re-analysis of the deposited data

How the results depend on the processing

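The 24 named genes kept the sign of their interaction in every alternative that could be fitted, 29 for each but 28 for Zbtb9. They were chosen by small p on these same libraries, which favours a kept sign. Counts of interaction calls were 3 with no filter on low counts, 16 with DESeq2, 5 without KO Sham 1 and KO Sham 3 on recovered reads for KO I/R 2, and 28 with DESeq2 on recovered reads. KO I/R against WT I/R gave 2 calls with DESeq2, 5 with limma-voom on recovered reads and 10 with DESeq2 on recovered reads. KO Sham against WT Sham gave 5 calls with no filter, 1 with limma-voom, 28 with DESeq2, 4 on log2(FPKM + 1), 7 on log2(FPKM + 0.1), 1 without KO Sham 1 and KO Sham 3, 4 without them on recovered reads, 1 with limma-voom on recovered reads and 44 with DESeq2 on recovered reads.

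Genes called for I/R in KO kidneys numbered 555 without KO Sham 1 and KO Sham 3 and 1898 with limma-voom on recovered reads. Genes called for I/R in WT kidneys numbered 2166 with limma-voom, 2182 without KO Sham 1 and KO Sham 3 on recovered reads, 2177 with limma-voom on recovered reads and 1768 with DESeq2 on recovered reads. Of the 24 named genes, the I/R pair carried 1 on log2(FPKM + 0.1), on recovered reads and with DESeq2 on recovered reads, and 5 without KO Sham 1 and KO Sham 3, on deposited counts and on recovered reads. Both pairs carried 9 with limma-voom on recovered reads. The fits of DESeq2 and limma-voom on recovered reads were chosen after seeing the data, and the cause of these shifts was not tested.

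With 1 library left out, interaction calls ranged over 0 to 2, KO I/R against WT I/R over 0 to 1, KO Sham against WT Sham over 0 to 2, I/R in KO over 834 to 1367 and I/R in WT over 527 to 1425. The I/R pair then carried 2 to 3 of the 24, the sham pair 7 to 10 and both pairs 12 to 14. Interaction calls appeared without KO Sham 1 (Cyp4a14 and Ugt1a6a), without WT I/R 1 (Rps2-ps10) and without WT Sham 1 (Gm42031).

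Of 37 genes followed singly, reversals were these. The interaction of Havcr1 was 0.19 on log2(FPKM + 0.1), 2.52 without KO Sham 1 and KO Sham 3, 2.32 without them on recovered reads, and −2.85 to 3.07 with 1 library left out. That of Lcn2 was 2.10, 1.51 and, with limma-voom on recovered reads, 0.0032, and −1.44 to 1.29 with 1 library left out. That of mt-Rnr2 was 0.10 without KO Sham 1 and KO Sham 3 on recovered reads. Among the other leading genes of lists, Csf3r had −0.69 and reversed to 1.02 without KO Sham 1 and KO Sham 3 and 0.50 without them on recovered reads, and Star had −0.60 and reversed to 0.26 and 0.16. Gpnmb (−1.70) reversed to 0.25 and Btg2 (−0.83) to 0.11 without them on recovered reads. Other values kept their direction but shrank. Without KO Sham 1 and KO Sham 3 on recovered reads the interaction was 0.59 for Slc22a12, 0.91 for Farsb and −0.31 for B2m. That of Fdps was 1.30 without KO I/R 2.

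Whether the replicate numbers of the labels pair the libraries cannot be told from these values. Of 18 same-number pairs 5 correlated above 0.1 in their deviations from the group means (range −0.37 to 0.30). The median correlation was 0.052 for same-number pairs and −0.015 for different-number pairs, and 7 of 12 libraries correlated best with their own number. The smallest edgeR adjusted p of the interaction was 0.0521 with a replicate block in the fit, against 0.249 without it. With a replicate block the interaction had 0 calls, KO I/R against WT I/R 0, KO Sham against WT Sham 0, I/R in KO 1134 and I/R in WT 1031, and the I/R pair carried 2, the sham pair 8 and both pairs 14 of the named genes. With 3 libraries a group and no block, the median SE of an interaction was 0.54, and the median unadjusted interval reached 1.17 log2 units to either side. The adjusted test asked for more than that, since Acaa1b at 2.17 ± 0.42 did not pass it (edgeR adjusted p = 0.26). Interactions well above 1 log2 unit could therefore go uncalled.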
